A study of Mus musculus with 12 samples.

Results

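Genes of the circadian clock, namely Npas2, Arntl (also called Bmal1), Clock, Per1, Per2, Per3, Cry1, Dbp, Nr1d1 and Nr1d2, were followed in mouse colon on 12 one-colour Agilent arrays. They are 10 of the 23851 genes tested, found through the RefSeq accession that the array files give for each probe. The groups were colons of ATF6aKO mice given dextran sulfate sodium (DSS) or left untreated (UT), of ATF6bKO mice given DSS or UT, and of wild type (WT) mice whose samples are titled DSS or UT, with 2 arrays in each of the 6 groups. ATF6a and ATF6b sit in the membrane of the endoplasmic reticulum. Under protein folding stress they are cut to free a transcription factor, and each knockout lacks one of them. All mice were male C57BL/6J, and DSS, which damages the lining of the colon and causes colitis, was given at 3% in drinking water for 3 days. All animals lived under 12 h of light and 12 h of dark, with lights on at hour 8. How the knockouts were made, the age of the mice, and the hour at which colons were taken are not given in the sources used here. These genes were chosen with their levels on these same arrays known, so every level and difference of the 10 genes below is a description, and what is counted as passing a threshold is not evidence about them.

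The mammalian clock is a feedback loop of transcription. ARNTL pairs with CLOCK or its relative NPAS2 and switches on genes that carry E-box sequences, among them the Per and Cry genes, whose proteins then shut the pair down. The same pair drives Nr1d1 and Nr1d2, which encode the repressors REV-ERB alpha and REV-ERB beta, and these act on RRE sequences to silence Arntl and Npas2. It also drives Dbp, whose protein acts on D-box sequences, so that in most mouse tissues Dbp, the Nr1d genes and the Per genes peak while Arntl and Npas2 are at their lowest. Such oscillation is known in mouse colon, in the epithelium and in the muscle wall.

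The 3 sequence elements of this loop can be read in the promoters of the genes themselves. Windows from 250 bases before to 50 bases after a gene's start, from RefSeq on build GRCm38.p6, were available for 9 of the 10 genes, the exception being Per2, and were searched on both strands. The upstream stretches of Per3, Per1 and Cry1, and 30 bases at the start of Arntl, are shown because between them they hold all 3 kinds of element. The sequences run 5′ to 3′ on the strand of the gene, with the matches in capitals. Per3 at chr4:151044666-151044915 (minus strand) carries 2 D-boxes (TTATGTAA), 205 and 158 bases before the start. Per1 at chr11:69098699-69098948 (plus strand) carries an E-box (CACGTG) 166 bases before the start. Cry1 at chr10:85185055-85185304 (minus strand) carries an E-box 60 bases before the start and, 79 bases before it, the E-box variant CACGTT, read on the opposite strand. Arntl at chr7:113207528-113207557 (plus strand) carries an RRE of the form AANTAGGTCA, 28 bases after the start.
Per3: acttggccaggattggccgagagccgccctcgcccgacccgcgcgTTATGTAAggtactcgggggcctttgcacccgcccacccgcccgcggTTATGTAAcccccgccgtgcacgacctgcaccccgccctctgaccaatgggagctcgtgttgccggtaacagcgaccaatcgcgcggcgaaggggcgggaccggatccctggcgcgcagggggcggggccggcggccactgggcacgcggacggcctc
Per1: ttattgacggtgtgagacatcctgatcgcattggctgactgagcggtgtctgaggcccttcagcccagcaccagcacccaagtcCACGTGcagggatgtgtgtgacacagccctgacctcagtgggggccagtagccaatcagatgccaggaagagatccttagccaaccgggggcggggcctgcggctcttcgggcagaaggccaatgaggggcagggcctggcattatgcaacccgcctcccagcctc
Cry1: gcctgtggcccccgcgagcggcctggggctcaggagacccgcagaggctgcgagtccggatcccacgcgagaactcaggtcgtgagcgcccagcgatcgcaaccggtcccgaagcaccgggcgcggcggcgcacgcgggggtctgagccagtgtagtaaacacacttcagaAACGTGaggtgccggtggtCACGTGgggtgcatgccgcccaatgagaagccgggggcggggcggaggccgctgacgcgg
Arntl: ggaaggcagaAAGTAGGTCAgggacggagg
Of all 32851 promoter windows, 7.15% held CACGTG, 4.68% held CACGTT, 1.06% held a D-box (TTATGTAA or TTACGTAA) and 0.435% held an RRE (AANTAGGTCA or AANTGGGTCA). A cAMP response element (TGACGTCA) was found in 1.79% of windows and in no window of the 9 genes searched. The variant CACGTT was also found in the window of Nr1d1. These matches describe letters in a window and were not set against the levels.

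Levels are log2 processed signals less the log2 of the 75th percentile on the same array, so a difference of 1 is 2-fold and values below 0 lie under that percentile. All 16 probes of the 10 genes were well above background on all 12 arrays and none was saturated. The array's 75th percentile ranged from 246 to 1187 signal units and 65.5% to 76.3% of probes were well above background. Atf6b, the gene deleted in ATF6bKO, had levels of -4.14 and -7.61 in ATF6bKO DSS and -7.64 and -6.48 in ATF6bKO UT, where 1 of the 4 arrays was well above background, against -0.18 and 0.16 in WT titled DSS and -1.10 and -0.39 in WT titled UT. Atf6 was not analysed here. All 11 colon epithelium markers measured were well above background on all 12 arrays. Neither of the 2 liver markers measured was so on all 12, but both were on most arrays. Ttr was well above background on both arrays of every group except ATF6bKO DSS, where it was on 1. Alb was so on both arrays of every group except WT titled DSS, with 1, and ATF6bKO DSS, with 0. The 2 WT titled UT arrays stood apart from each other, with a median absolute difference between replicates of 0.483 over all genes, against 0.169 to 0.217 in the other 5 groups.

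The labels of the WT samples conflict. The titles of the 4 WT samples put 2 in DSS and 2 in UT, while their treatment fields say the reverse, so the WT groups are named by title and no sign of a WT difference is read as the effect of DSS. The 4 arrays of each genotype shared a scan that no other genotype was in, and per the file headers the 4 WT arrays lay on 1 slide and the 4 ATF6bKO arrays on another, with no slide recorded for ATF6aKO. Genotype therefore cannot be told apart from scan or slide, whereas the DSS and UT arrays of a genotype shared a scan. Nothing in the labels ties the 2 arrays of a group to 2 different animals. A p-value therefore reflects the spread of these samples alone, which may be technical, and with 2 arrays a group the precision of every value is limited.

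The activators came first in the loop. Arntl, the partner that all active pairs share, had levels of 1.49 and 1.71 in ATF6aKO DSS, against 0.73 and 0.24 in ATF6aKO UT. It had 0.80 and 0.84 in ATF6bKO DSS, against 1.82 and 1.38 in ATF6bKO UT. It had 1.48 and 1.20 in WT titled DSS and 0.94 and 1.23 in WT titled UT. Arntl was thus higher on both DSS arrays of one knockout and lower on both DSS arrays of the other, and the WT groups overlapped. By group mean the order was ATF6aKO DSS and ATF6bKO UT at 1.60 each, WT titled DSS at 1.34, WT titled UT at 1.09, ATF6bKO DSS at 0.82 and ATF6aKO UT at 0.48, with overlapping arrays between ATF6bKO UT and both ATF6aKO DSS and WT titled DSS, and between the WT groups.

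Npas2, which can take the place of CLOCK in the pair, had levels of -3.14 and -2.90 in ATF6aKO DSS, against -4.27 and -4.65 in ATF6aKO UT. It had -3.49 and -3.56 in ATF6bKO DSS, against -3.14 and -3.27 in ATF6bKO UT. It had -3.38 and -3.54 in WT titled DSS and -4.85 and -4.50 in WT titled UT. Npas2 therefore fell into a low set made of ATF6aKO UT and WT titled UT, and a high set made of the other 4 groups, with no array between -3.56 and -4.27. Clock, the usual partner of ARNTL, covered the narrowest range of the 10 genes. Its levels were 0.38 and 0.52 in ATF6aKO DSS, against 0.81 and 0.68 in ATF6aKO UT. They were 0.47 and 0.42 in ATF6bKO DSS, against 0.90 and 0.77 in ATF6bKO UT, and 0.69 and 1.14 in WT titled DSS and 1.57 and 0.75 in WT titled UT. All 4 knockout DSS arrays were below all 4 knockout UT arrays, and the WT groups overlapped. The other 2 Clock probes differed by 0.16 and 0.02 in ATF6aKO and by -0.33 and -0.87 in ATF6bKO, so the lower Clock in ATF6aKO rests on the brightest of 3 probes.

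Among the repressors of the pair, the 3 Per genes did not move together. Per1, which outside signals such as glucocorticoids induce, had levels of -0.23 and -0.05 in ATF6aKO DSS, against 0.04 and 0.81 in ATF6aKO UT. It had -1.20 and -0.19 in ATF6bKO DSS, against -0.55 and -0.76 in ATF6bKO UT. It had -0.37 and 0.29 in WT titled DSS and -1.25 and -1.54 in WT titled UT. The groups of ATF6bKO overlapped, and the lowest Per1 levels of all were the 2 WT titled UT arrays.

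Per2, whose protein binds the cryptochromes in the repressor complex, had levels of -2.36 and -1.77 in ATF6aKO DSS, against -0.17 and -0.52 in ATF6aKO UT. It had -3.44 and -3.41 in ATF6bKO DSS, against -1.17 and -0.94 in ATF6bKO UT. It had -2.24 and -1.23 in WT titled DSS and -2.13 and -2.24 in WT titled UT. Per2 was lower on all DSS arrays than on all UT arrays within each knockout, and lowest of all in ATF6bKO DSS. A second Per2 probe differed far less, by -0.26 in ATF6aKO and -0.38 in ATF6bKO, so the size of the Per2 difference rests on the brighter probe.

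Per3, a more dispensable member of the family, was dim. It had -6.03 and -5.91 in ATF6aKO DSS, against -4.08 and -3.32 in ATF6aKO UT. It had -4.76 and -5.25 in ATF6bKO DSS, against -4.64 and -4.39 in ATF6bKO UT, and -3.89 and -4.41 in WT titled DSS and -3.98 and -4.17 in WT titled UT. The 2 ATF6aKO DSS arrays were the lowest of the 12, and the WT groups overlapped.

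Cry1, the cryptochrome that represses the pair late in the cycle, had levels of -2.85 and -2.67 in ATF6aKO DSS, against -2.67 and -3.38 in ATF6aKO UT. It had -3.72 and -3.74 in ATF6bKO DSS, against -2.90 and -2.93 in ATF6bKO UT. It had -3.81 and -3.90 in WT titled DSS and -4.18 and -4.30 in WT titled UT. The ATF6bKO DSS arrays lay below the other 6 knockout arrays, and all 8 knockout arrays lay above all 4 WT arrays. A second Cry1 probe gave the same signs for DSS minus UT, 0.50 in ATF6aKO and -1.13 in ATF6bKO, but a difference of -0.21 for ATF6bKO minus WT where the tested probe gave 0.73.

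The Rev-erb genes and Dbp are direct targets of the activator pair, and Dbp and Nr1d2 covered the widest ranges of the 10 genes. Dbp, a D-box activator whose transcript has one of the largest daily swings in mouse tissues, had levels of 0.40 and 0.20 in ATF6aKO DSS, against 2.34 and 4.63 in ATF6aKO UT. It had 1.40 and 1.99 in ATF6bKO DSS, against 0.94 and 0.83 in ATF6bKO UT. It had 2.94 and 3.69 in WT titled DSS and 3.93 and 3.79 in WT titled UT. The order of group means was WT titled UT at 3.86, ATF6aKO UT at 3.48, WT titled DSS at 3.32, ATF6bKO DSS at 1.69, ATF6bKO UT at 0.89 and ATF6aKO DSS at 0.30. The 2 ATF6aKO UT arrays spanned both WT groups, and the last 3 groups overlapped with no other.

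Nr1d1 had levels of -2.40 and -2.37 in ATF6aKO DSS, against -1.66 and 0.62 in ATF6aKO UT. It had -0.49 and -0.47 in ATF6bKO DSS, against -1.76 and -2.35 in ATF6bKO UT. It had 0.18 and 0.14 in WT titled DSS and -2.07 and -0.25 in WT titled UT. Replicate 1 minus replicate 2 was -2.29 in ATF6aKO UT and -1.82 in WT titled UT, farther apart than in the other 4 groups. The other 2 Nr1d1 probes differed by -0.87 and -0.02 in ATF6aKO and by 0.74 and 0.37 in ATF6bKO, with the same signs as the tested probe and smaller sizes.

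Nr1d2 had levels of -2.17 and -2.38 in ATF6aKO DSS, against -0.26 and 0.75 in ATF6aKO UT. It had -0.98 and -0.63 in ATF6bKO DSS, against -1.45 and -1.54 in ATF6bKO UT. It had 0.37 and 0.71 in WT titled DSS and 1.56 and 0.82 in WT titled UT. The 3 lowest groups stood in the same order as for Dbp, with ATF6aKO DSS lowest, then ATF6bKO UT, then ATF6bKO DSS.

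**Figure D1:**
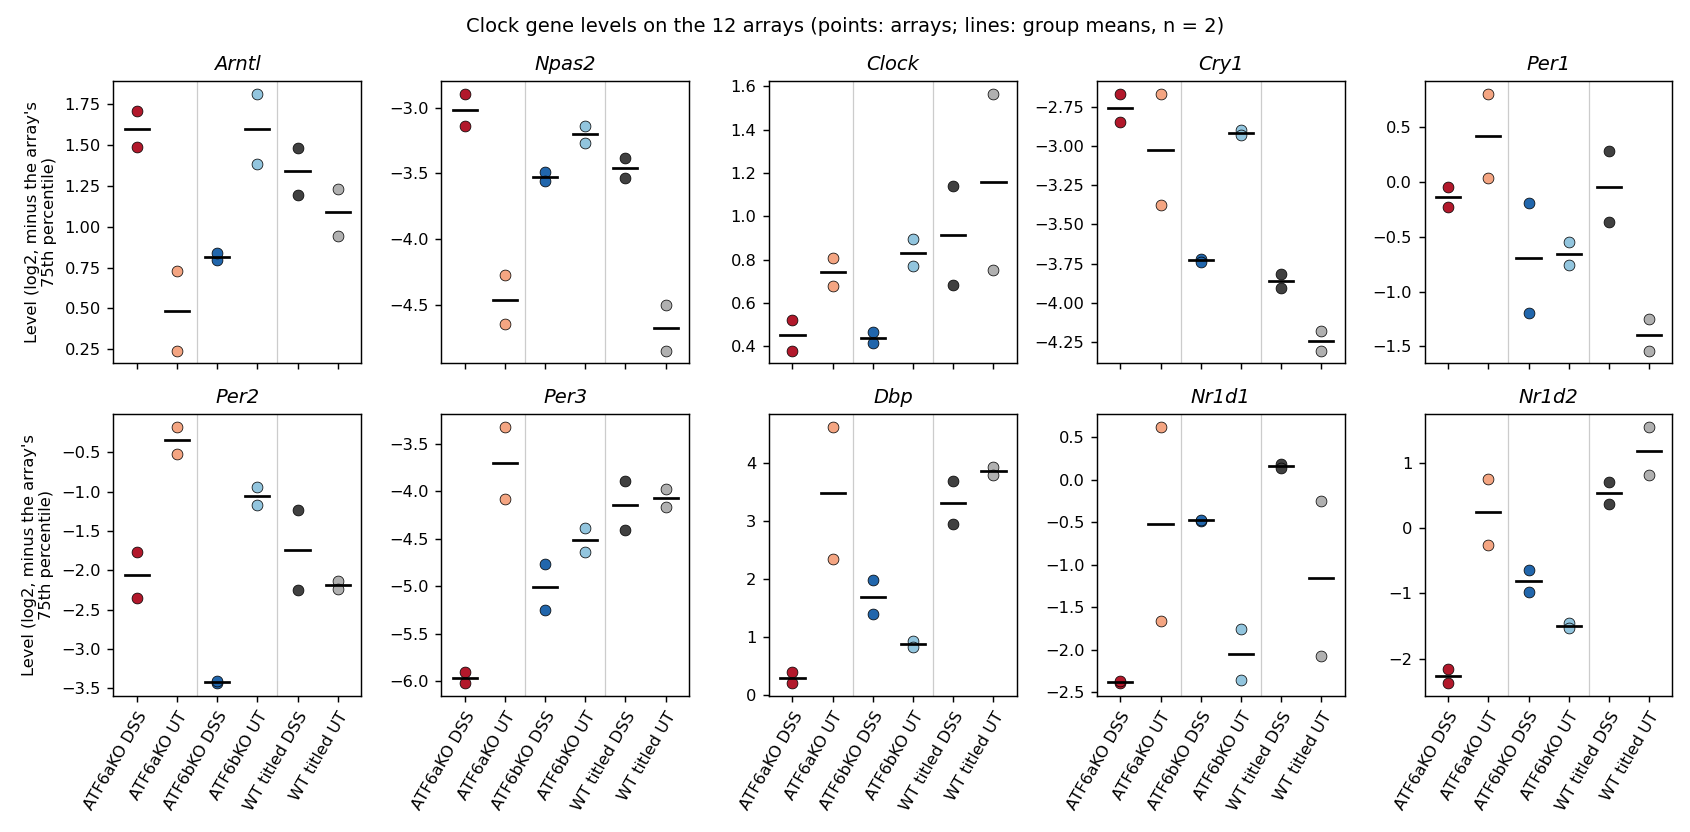
Levels of the 10 genes on each array, in log2 units relative to the array's 75th percentile, one panel per gene, with points for arrays and lines for group means (n = 2). In ATF6aKO the DSS arrays were above UT for Arntl and Npas2 and below UT for Dbp, Nr1d1, Nr1d2 and the 3 Per genes. In ATF6bKO Arntl and Npas2 were below UT and Dbp, Nr1d1 and Nr1d2 above. Per2 and Per3 were below UT in ATF6bKO as well, and Per1 overlapped there.

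With DSS in ATF6aKO, Arntl and Npas2 were higher and most target genes lower. Arntl was 2.17-fold higher in ATF6aKO DSS than in ATF6aKO UT (log2 1.12, SE 0.23) and Npas2 2.72-fold higher (log2 1.44, SE 0.20). Dbp was 9.06-fold lower (log2 -3.18, SE 0.61), Nr1d2 5.75-fold lower (log2 -2.52, SE 0.35), Per3 4.81-fold lower (log2 -2.27, SE 0.30), Nr1d1 3.63-fold lower (log2 -1.86, SE 0.72) and Per2 3.29-fold lower (log2 -1.72, SE 0.33). Per1 differed by -0.56, Clock by -0.29 and Cry1 by 0.27, each with 2 arrays a group. In 9 of the 10 genes the arrays did not overlap, with 2 genes above and 7 below. The share of all genes without overlap was not counted, so this count is not read as particular to the 10 genes. The median difference of the 10 genes was -1.14, against 0.04 over all genes tested.

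In limma's test over all genes, adjusted by the Benjamini-Hochberg method at 0.05, 6 of the 10 passed in ATF6aKO, 2 higher and 4 lower, where 6.34% of all genes passed, 2.90% higher and 3.45% lower; these counts come from the comparison that the choice of genes used. They depended on single arrays: 4 passed without UT replicate 1, 2 without UT replicate 2, 1 without DSS replicate 1 and 4 without DSS replicate 2. When the 4 ATF6aKO arrays alone were fitted, 2 passed. The Dbp difference was -4.32 without UT replicate 1 and -2.04 without UT replicate 2, and that of Nr1d1 -3.003 and -0.718. With the background handled by normexp instead, the difference of the dim Per3 shrank to -0.41 and that of Npas2 to 0.68.

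DSS in ATF6bKO did not repeat this arrangement. Arntl was lower in ATF6bKO DSS than in ATF6bKO UT (log2 -0.78, SE 0.23), as were Npas2 (log2 -0.32, SE 0.20) and Clock (log2 -0.39, SE 0.27). Nr1d1 was 2.98-fold higher (log2 1.58, SE 0.72), Dbp was higher by 0.81 (SE 0.61) and Nr1d2 by 0.69 (SE 0.35). Against the direction of those 3 targets, Per2 was 5.17-fold lower (log2 -2.37, SE 0.33), Cry1 1.75-fold lower (log2 -0.81, SE 0.22) and Per3 was lower (log2 -0.49, SE 0.30), while Per1 overlapped. The arrays did not overlap in 9 of the 10 genes, 3 above and 6 below. Here too the share of all genes without overlap was not counted, and the count is not read as particular to these genes. The median difference was -0.36, against -0.06 over all genes.

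Of the 10 genes, 2 passed the all-gene threshold in ATF6bKO, Per2 and Cry1, both lower, where 12.8% of all genes passed, 5.65% higher and 7.19% lower. Per2 passed whichever array was left out and Cry1 passed with none left out. With normexp, the difference of Cry1 was -0.14 and that of Per2 -1.20, and the signs of the dim Npas2 and Per3 turned, to 0.06 and 0.11.

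The 2 knockouts thus showed differences of opposite sign in 5 genes with no overlap of arrays in either, namely Arntl, Npas2, Dbp, Nr1d1 and Nr1d2, of which Npas2 lost the opposition with normexp. How many of all genes meet the same rule was not counted, so the 5 are a description. The response of ATF6aKO minus that of ATF6bKO was 1.90 for Arntl (SE 0.33), 1.77 for Npas2 (SE 0.28), -3.99 for Dbp (SE 0.86), -3.44 for Nr1d1 (SE 1.02) and -3.21 for Nr1d2 (SE 0.50). It was -1.77 for Per3 (SE 0.42) and 1.08 for Cry1 (SE 0.32). For Per2 it was 0.65 (SE 0.46), for Per1 -0.52 (SE 0.53) and for Clock 0.10 (SE 0.38), with values for Per1 and Clock smaller than their errors. In limma's test of this difference over 23851 genes, 0 passed (0.00%), the 10 genes included, while 1899 genes had an unadjusted p under 0.05. Without ATF6bKO DSS replicate 1, 203 genes passed, Nr1d2 among them.

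**Figure D2:**
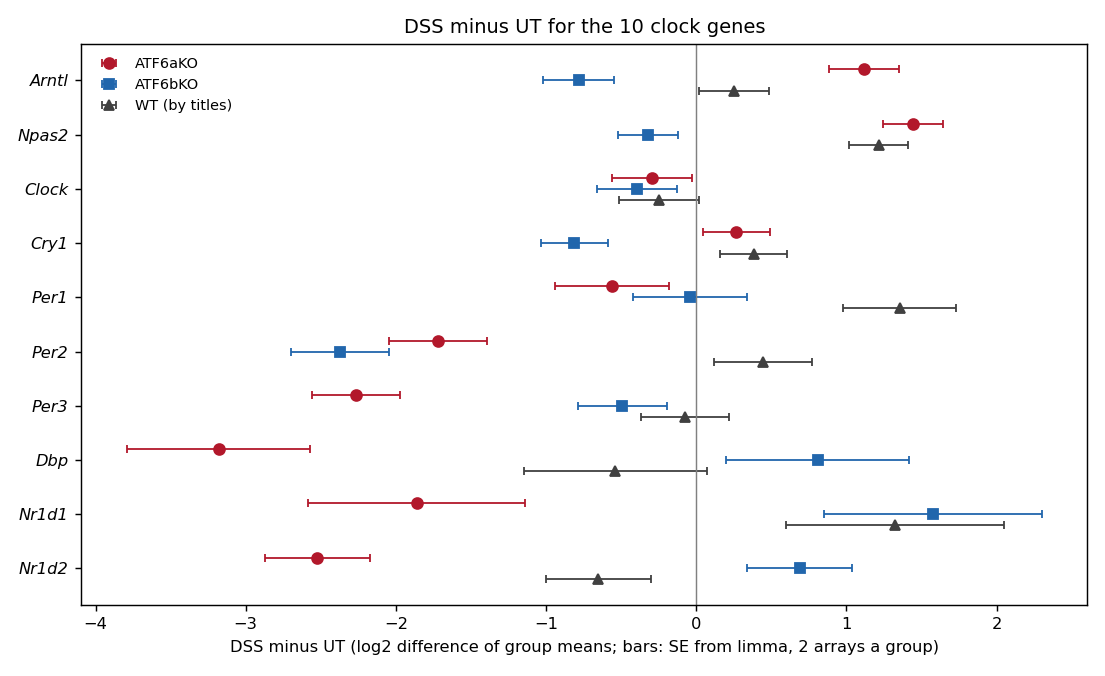
Difference DSS minus UT for each of the 10 genes in ATF6aKO, ATF6bKO and, by title, WT, in log2 units with bars for the standard error (2 arrays a group). ATF6aKO and ATF6bKO lie on opposite sides of 0 for Arntl, Npas2, Dbp, Nr1d1 and Nr1d2, and on the same side for Per2, at -1.72 and -2.37.

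Taken over both knockouts, with genotype as a term, Per2 was lower with DSS (log2 -2.05, SE 0.20), as were Per3 (log2 -1.38, SE 0.39) and Clock (log2 -0.34, SE 0.09). These 3 were the members that passed, all lower, where 29.0% of all genes passed, 13.2% higher and 15.8% lower. Per2 passed in all 8 fits that left out an array, and Per3 and Clock in 3 of 8 each. For Clock the value is that of the brightest probe, which in ATF6aKO the other 2 did not share. The size of the Per2 difference rests on its brighter probe, and was -1.18 with the mean of the Per2 probes. With normexp the Per2 difference was -1.32 and the Per3 difference was -0.15.

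In WT, the titled DSS arrays were above the titled UT arrays for Npas2 (log2 1.21, SE 0.20), Per1 (log2 1.35, SE 0.38), Nr1d1 (log2 1.32, SE 0.72) and Cry1 (log2 0.38), and below them for Nr1d2 (log2 -0.65) and Dbp (log2 -0.54). The Nr1d1 difference was 0.41 to 2.23 with 1 array left out, and its other 2 probes gave 0.51 and -0.15. Arntl, Clock, Per2 and Per3 overlapped. Npas2 and Per1 passed, both higher by title, where 31.8% of all genes passed, 14.9% higher and 16.9% lower. Without titled DSS replicate 2 or without titled UT replicate 1 the count was 1. Under the treatment fields in place of the titles, all these signs turn. In a fit of the 4 WT arrays alone none of the 10 passed. The marker genes of the WT arrays are given with those of the knockouts below.

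The genotype comparisons share the same 4 WT arrays. Averaged over both treatments, ATF6aKO was above WT in Cry1 (log2 1.16, SE 0.16), Per1 (log2 0.86) and Per2 (log2 0.76), and below WT in Nr1d2 (log2 -1.88, SE 0.25), Dbp (log2 -1.70, SE 0.43) and Per3 (log2 -0.72). These 6 genes passed, 3 higher and 3 lower, where 50.4% of all genes passed, 21.5% higher and 28.9% lower. ATF6bKO was above WT in Cry1 (log2 0.73) and Npas2 (log2 0.70) and below it in Dbp (log2 -2.30, SE 0.43), Nr1d2 (log2 -2.01, SE 0.25) and Per3 (log2 -0.65), 2 higher and 3 lower, where 50.6% of all genes passed, 24.5% higher and 26.1% lower. Counts of 6 and 5 of 10 are near that background. With 1 array left out the count was 3 to 6 in ATF6aKO, the lowest without titled DSS replicate 1 of WT, and Per1 passed in 3 of 8 such fits and Per2 and Per3 in 4 of 8 each. In ATF6bKO it was 4 to 6, and Per3 passed in 4 of 8. With normexp the sign of Per3 turned in both, to 0.090 in ATF6aKO and 0.45 in ATF6bKO. The second Per2 probe gave -0.12 for ATF6aKO minus WT and 0.13 for ATF6bKO minus WT. The higher Per2 of ATF6aKO against WT, and against ATF6bKO below, therefore rests on the brighter probe. With the mean of the Per2 probes, ATF6aKO minus ATF6bKO was 0.39. Between the knockouts, Per2 alone passed, higher in ATF6aKO than in ATF6bKO (log2 1.03, SE 0.23), where 5.52% of all genes passed, 1.15% higher and 4.37% lower, and it passed in none of the 8 fits that left out an array.

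To place each array on the loop, a clock index was taken as the mean level of Arntl and Npas2 minus the mean level of Dbp, Per1, Per2, Per3, Nr1d1 and Nr1d2, each gene first centred on its mean over the 12 arrays. A high index describes an array where these activators, Arntl and Npas2, are high relative to the targets. A change in either mean alone can move the index. The index was 1.58 and 1.73 in ATF6aKO DSS, against -0.86 and -2.42 in ATF6aKO UT. It was 0.51 and 0.24 in ATF6bKO DSS, against 1.05 and 0.86 in ATF6bKO UT. It was -0.17 and -0.76 in WT titled DSS and -1.02 and -0.76 in WT titled UT.

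All 4 arrays with the highest index were ATF6aKO DSS and ATF6bKO UT, and both ATF6aKO UT arrays and all WT arrays were below 0. The pooled standard deviation within groups was 0.50. The difference DSS minus UT was 3.30 in ATF6aKO and -0.58 in ATF6bKO, and titled DSS minus titled UT was 0.42 in WT. With normexp the difference in ATF6aKO was 2.32. The index gets no p, because the genes were chosen with these levels known. Whether the groups were taken at different hours was not tested, since no hour of collection is given, and the hour and the group cannot be told apart in this design.

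**Figure D3:**
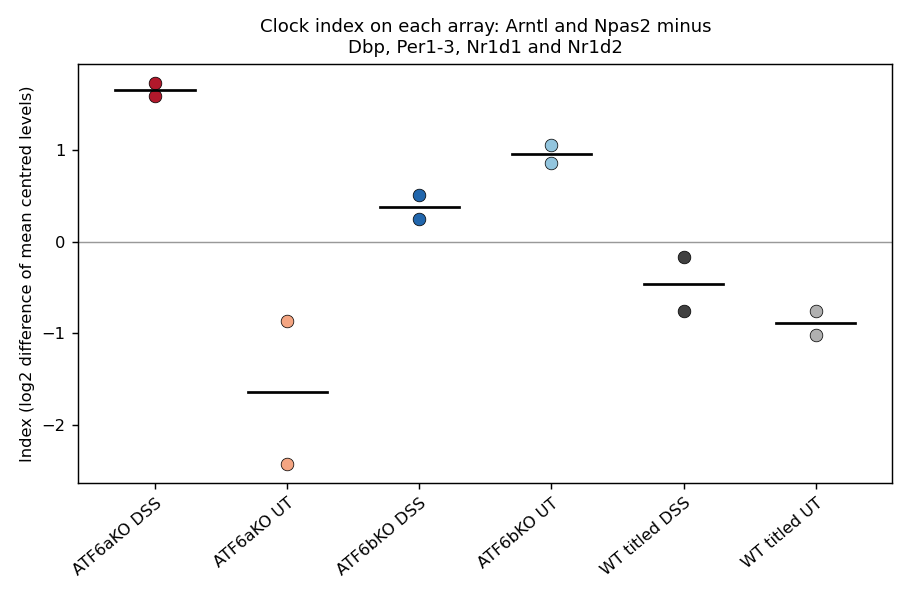
The clock index of each array in log2 units, with points for arrays and lines for group means (n = 2). ATF6aKO DSS is the highest group, at 1.58 and 1.73, ATF6aKO UT holds the lowest array, at -2.42, and ATF6bKO DSS lies below ATF6bKO UT.

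Arrays of 1 group offer a comparison that no group contrast uses. In ATF6aKO UT, replicate 1 minus replicate 2 was 0.49 for Arntl, 0.38 for Npas2 and 0.71 for Cry1, against -2.29 for Dbp, -2.29 for Nr1d1, -1.01 for Nr1d2, -0.77 for Per1 and -0.77 for Per3, and 0.35 for Per2. In this pair of arrays 5 of the 6 target genes went against Arntl and Npas2, and Per2 went with them. Over all 6 groups, Arntl and Dbp went opposite ways between replicates in 4, and of the 36 pairs made by Arntl and one of the 6 target genes in a group, 19 were opposite. Of 6 targets, 5 were opposite in WT titled UT, 4 in WT titled DSS, 2 in ATF6aKO DSS, 2 in ATF6bKO UT and 1 in ATF6bKO DSS. Opposition between replicates was thus not general. Replicate numbers have no order, so only the opposition is read.

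**Figure D4:**
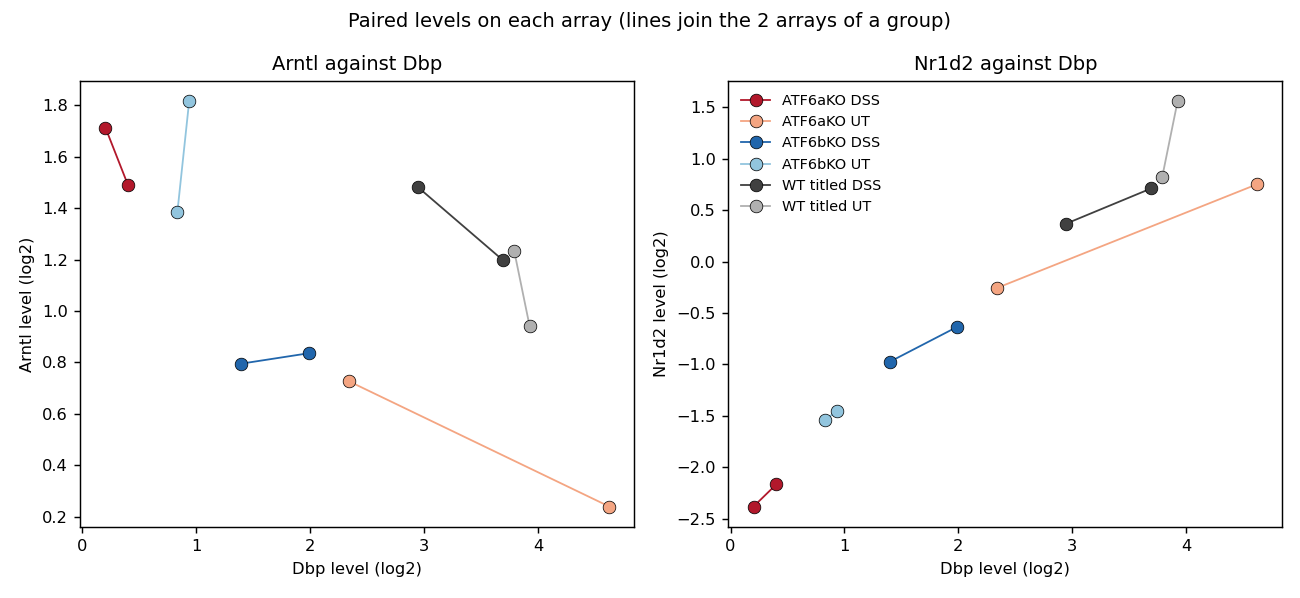
Arntl (left) and Nr1d2 (right) against Dbp on each array, in log2 units, with lines joining the 2 arrays of a group. Nr1d2 and Dbp rank the 3 lowest groups alike. In the ATF6aKO UT pair Arntl is higher on the array where Dbp is lower, with Dbp at 2.34 and 4.63.

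The other components of the loop were taken from a list of 10, of which 8 were measured well enough to test. This list and those below were also chosen with earlier results of these data known. Their counts and p-values are therefore descriptions and not fresh tests. In ATF6aKO, Nfil3, a repressor at D-boxes, rose (levels of 2.17 and 2.07 in DSS, against 0.84 and 0.14 in UT, log2 1.63, SE 0.27, limma adjusted p = 0.0151). Tef, a D-box activator of the same family as Dbp, fell (-0.50 and -0.27 in DSS, against 1.38 and 2.38 in UT, log2 -2.26, SE 0.34, limma adjusted p = 0.0115). Those were 2 of the 8, where 6.34% of all genes passed. The other 6 did not pass, with a median of -0.41 over the 8. Hlf, the third activator of that family, differed by -0.31 and Cry2 by -1.10.

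In ATF6bKO, 2 of the 8 passed, beside 12.8% of all genes. Nfil3 rose here too (2.09 and 2.54 in DSS, against 0.80 and 0.88 in UT, log2 1.47, SE 0.27, limma adjusted p = 0.00959). Bhlhe41, a repressor at E-boxes, rose at least 1.36-fold (limma adjusted p = 0.0402), a lower bound because it was not well above background on either UT array. Tef differed by -0.41 and did not pass, and the difference between the knockouts in Tef did not pass either (log2 -1.86, SE 0.48, limma adjusted p = 0.362).

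Over both knockouts, 4 of the 8 passed, beside 29.0% of all genes: Nfil3 rose (log2 1.55, limma adjusted p = 0.00227), Rora rose (log2 0.59, limma adjusted p = 0.00913), while Cry2 (log2 -1.05, limma adjusted p = 0.0023) and Tef (log2 -1.33, limma adjusted p = 0.0493) fell. Cry2, the second cryptochrome, differed by -1.10 in ATF6aKO and -1.003 in ATF6bKO and passed in neither alone. In WT, Nfil3 (log2 1.84), Bhlhe40 (log2 1.47) and Cry2 (log2 1.31) were higher on the titled DSS arrays, each past the threshold. By title, the WT sign of Nfil3 was that of the knockouts and the WT sign of Cry2 was the opposite; under the treatment fields both turn.

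**Figure D5:**
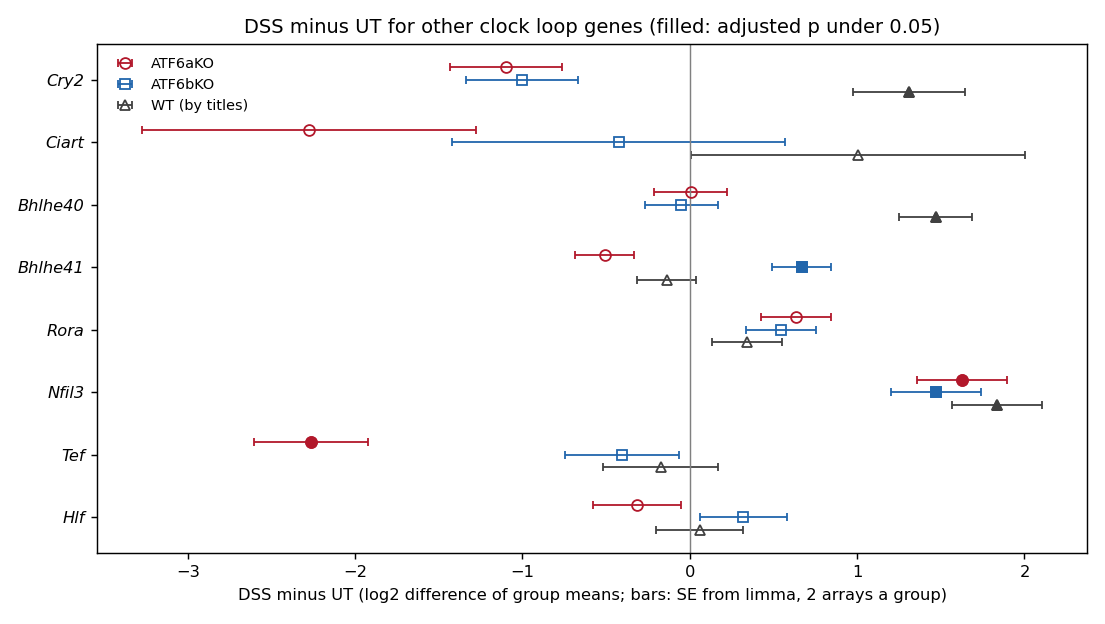
Difference DSS minus UT of the 8 tested clock loop genes outside the 10, in log2 units with bars for the standard error (2 arrays a group), filled where limma's adjusted p was under 0.05. Nfil3 is filled at 1.63 in ATF6aKO, 1.47 in ATF6bKO and, by title only, 1.84 in WT, where the treatment fields turn the sign, and Tef is filled in ATF6aKO.

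Of 9 genes for kinases, ubiquitin ligases and other proteins that act on clock proteins, Timeless, a replication fork factor with a debated clock role in mammals, was the 1 that passed in each knockout. Of all genes, 6.34% passed in ATF6aKO and 12.8% in ATF6bKO. It fell in ATF6aKO (log2 -0.96, limma adjusted p = 0.0151) and in ATF6bKO (log2 -0.70, limma adjusted p = 0.0232). Csnk1d, Csnk1e, Btrc, Fbxw11, Gsk3b and Sirt1 passed in neither knockout nor over both. Over both knockouts Nampt, the enzyme of NAD salvage, rose (log2 0.36, limma adjusted p = 0.0489), and Timeless fell. These were 2 of the 9, beside 29.0% of all genes. In WT by title, 6 of the 9 passed, 5 higher and 1 lower, beside 31.8% of all genes.

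Of 10 clock-controlled output genes, 0 passed in ATF6aKO, beside 6.34% of all genes, and 3 in ATF6bKO, beside 12.8%, where Tspan4 rose (log2 1.59, limma adjusted p = 0.00288) and Tsc22d3 (log2 -0.94, limma adjusted p = 0.026) and Lonrf3 (log2 -0.83, limma adjusted p = 0.0355) fell. Their median difference in ATF6aKO was -0.20, against 0.04 for all genes. Over both knockouts 6 of the 10 passed, 2 higher and 4 lower, where 29.0% of all genes passed, among them Usp2, a clock-driven deubiquitinase (log2 -0.82, limma adjusted p = 0.0218), and Klf10 (log2 0.60, limma adjusted p = 0.00928). Wee1, a cell cycle kinase under E-box control, fell at least 1.73-fold (limma adjusted p = 0.0412), a lower bound because it was not well above background on any DSS array of the knockouts and was on 3 of the 4 UT arrays.

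Glucocorticoids also move Per1 and peak daily, and 8 of 9 listed responsive genes were tested. In ATF6aKO 0 passed, in ATF6bKO Tsc22d3 fell, and over both knockouts Tsc22d3 (log2 -0.83, limma adjusted p = 0.00526) and Sgk1 (log2 -1.50, limma adjusted p = 0.0172) fell. Of all genes, 6.34% passed in ATF6aKO, 12.8% in ATF6bKO and 29.0% over both. In WT by title, Fkbp5 (log2 1.76, limma adjusted p = 0.0114), Dusp1 (log2 1.03, limma adjusted p = 0.0234) and Klf9 (log2 0.72, limma adjusted p = 0.0421) were higher and Mt2 lower (log2 -1.33, limma adjusted p = 0.0368), on the same arrays where Per1 was higher. Those 4 of 8 stood beside 31.8% of all genes, and their part in the Per1 difference was not tested.

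Markers of other cells moved with DSS in the same arrays, and in bulk tissue fewer cells of a type and less RNA per cell cannot be told apart. The mean level of 6 neutrophil markers was -3.03 and -3.58 in ATF6aKO DSS, against -5.61 and -5.78 in ATF6aKO UT. All 6 had every DSS array above every UT array there, and 3 of 6 passed. How many of all genes had no overlap was not counted. The mean was -1.16 and -1.58 in ATF6bKO DSS, against -6.47 and -5.75 in ATF6bKO UT, and 6 of 6 passed, all higher. One of the 6 was well above background on all 12 arrays. The mean of 4 crypt base markers was -3.81 and -3.83 in ATF6aKO DSS, against -1.32 and -1.11 in ATF6aKO UT, and -3.65 and -3.65 in ATF6bKO DSS, against -0.86 and -1.09 in ATF6bKO UT, and 4 of 4 fell in each. Crypt base markers were thus lower in both knockouts.

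Smooth muscle markers, whose cells have a clock of their own, had a mean level of 5.86 and 5.82 in ATF6aKO DSS, against 5.27 and 5.22 in ATF6aKO UT, and all 8 were above UT with 0 of 8 passing. They had 5.23 and 5.77 in ATF6bKO DSS, against 5.63 and 5.39 in ATF6bKO UT, with 0 of 8 passing and all overlapping. T and NK cell markers passed for 0 of 5 in ATF6aKO and 4 of 5 in ATF6bKO, monocyte and macrophage markers for 0 of 5 and 3 of 5, and B cell markers for 0 of 5 and 2 of 5, all higher. Of all genes, 6.34% passed in ATF6aKO and 12.8% in ATF6bKO. In ATF6aKO, 4 T and NK cell and 4 monocyte and macrophage markers had every DSS array above every UT array. The share of all genes without overlap was not counted. These counts, and that of the smooth muscle markers, are therefore not read as particular to the markers. In the test of the difference between the responses, 0 markers of these lists passed, but 0 of all 23851 genes did. That test therefore tells nothing particular about the markers. In WT, the mean crypt base level was -3.55 and -3.13 on the titled DSS arrays and -1.95 and -1.87 on the titled UT arrays, and the mean neutrophil level was -4.56 and -5.37 against -5.48 and -6.25. The part of any of these cells in the clock gene differences was not tested.

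Among 9212 named genes well above background on all arrays with a standard deviation of at least 0.3, those outside the 10 whose levels followed Arntl most closely over the 12 arrays included Cacnb2, a calcium channel subunit (r = 0.768), Olfr78, Tubgcp4 and Tlcd2. The most opposed was Jun, a component of the AP-1 transcription factor (r = -0.812), and Ryr1, Muc20 and Tmem140 were also among the most opposed. With the 10 genes counted in, Npas2 ranked 4 from the top (r = 0.713) and Dbp 13 from the bottom (r = -0.613).

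With the mean of each genotype subtracted, Tubgcp4, of the gamma-tubulin complex, came first (r = 0.944), followed by Smarca2, D1Pas1, Cdc42se2 and Utf1. The most opposed were then Tmem140 (r = -0.915), Mcf2l, Plekhs1, Jun and Malt1. On that scale Nr1d2 ranked 2 from the bottom (r = -0.914), Dbp 5 from the bottom (r = -0.885), Npas2 10 from the top (r = 0.812) and Cry1 28 from the top (r = 0.759). Per3 (r = -0.642) and Nr1d1 (r = -0.601) ranked 74 and 104 from the bottom, and Per1 (r = -0.181), Clock (r = -0.147) and Per2 (r = -0.0019) stood in the middle. These values describe 12 arrays that share groups and scans, and they say nothing of shared control. The 10 genes were chosen with their levels on these arrays known. Their ranks, here and over the 12 arrays above, are therefore a description and not evidence about them.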

How the data were processed

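Per the labels, total RNA of each colon sample was labelled with Cy3. Per the submitters' processing notes, the authors quantified the arrays with Agilent Feature Extraction 10.7.1.1. The deposited scanner files hold an intensity per spot, the processed signal, corrected for background and not scaled between arrays; the sources give no mean signal column, so the normexp alternative (offset 50) used the median signal and the local background median in place of the planned mean signal. The deposited value table holds log2 values centred per probe, with its scaling unknown. In 8 of its 12 columns the values are those of another sample's array: the column of a WT sample titled DSS equals an array titled UT and the reverse, and ATF6aKO replicates are exchanged within groups. It served as an alternative, with columns taken by name.

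Control and outlier spots (54 to 108 per array) were left out, spots of a probe were averaged, and levels were set as described above. A probe was kept if well above background on both arrays of at least 1 group (30428 of 41174). Accessions were named through a RefSeq table of GRCm38.p6, which matched 23374 probes (56.8%); 13871 of the 23851 genes tested have a symbol. A gene is its probe with the highest mean level. Tests were made with limma 3.58.1 (lmFit and eBayes, R 4.3.3) in 1 fit of 6 group means over 12 arrays; the comparison over both knockouts used their 8 arrays with genotype as a term. The code was tested on simulated data. The members and lists were chosen with earlier results of these data known. The text names the 10 genes always, any listed gene that passed, and by correlation the 5 most like and 5 most unlike Arntl. Some listed genes, genes named by correlation, and a planned index over clock genes outside the 10 are not reported here.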

Additional observations from a re-analysis of the deposited data

Results flagged for a closer look

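The responses of 5 genes to DSS ran in opposite directions in the 2 knockouts, with every DSS array above every UT array in one and below in the other. The share of all genes that meet this rule was not counted, so the 5 are not read as particular to the clock. The response of ATF6aKO minus that of ATF6bKO was 1.77 for Npas2, 1.90 for Arntl, -3.99 for Dbp, -3.44 for Nr1d1 and -3.21 for Nr1d2. The difference itself was tested with limma over all genes, and none of these 5 passed, where 0.00% of all genes did. With normexp the Npas2 difference in ATF6bKO was 0.06, so that its opposition was lost. What lies behind the opposite directions was not tested.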

How the results depend on the processing

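The count of genes past the threshold for DSS minus UT in ATF6aKO was 1513, against 705 with no filter on dim probes and 835 when only its own arrays were fitted, and it ranged over 175 to 471 with 1 array left out. In ATF6bKO it was 3064, against 1807 with normexp and 1790 with its own arrays alone, and 1095 to 1862 with 1 array left out. In WT by title it was 7581, against 693 in a fit of the 4 WT arrays, and 3079 to 10917 with 1 array left out, the highest without titled UT replicate 2. Over both knockouts it was 6905, and 3817 to 6719 with 1 array left out. ATF6aKO minus ATF6bKO gave 1317, against 10401 with normexp (1428 higher and 8973 lower), 614 with no filter and 2895 with its own arrays alone, and 215 to 2136 with 1 array left out. The test of the difference between the 2 DSS responses gave 0, against 5 with quantile normalization and 4 with the knockout arrays alone, and 0 to 203 with 1 array left out. The median of all genes shifted most under normexp, to 0.34 for ATF6bKO minus WT and -0.23 for ATF6aKO minus ATF6bKO, and under the value table, to 0.56 for ATF6aKO minus WT and 0.60 for ATF6bKO minus WT. The share of called genes that was higher was 42.6% for ATF6aKO minus WT, against 60.5% with normexp and 86.6% in the value table. For ATF6bKO minus WT it was 48.4%, against 73.9% and 89.5%. With normexp it also moved for DSS over both knockouts, to 59.2% against 45.5%, and for DSS in ATF6bKO, to 54.3% against 44.0%. Quantile normalization moved it for ATF6aKO minus ATF6bKO, to 34.2% against 20.9%.

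The clock index difference in ATF6aKO, 3.30, was 2.32 with normexp and 2.52 to 4.08 with 1 array left out. The difference between the knockouts in that index, 3.88, was 2.87 with normexp, 4.42 without Per2 and 3.10 to 4.66 with 1 array left out. Taken by its column names, the value table turned the WT signs, to -0.42 for the index, -1.28 for Npas2 and -1.42 for Per1, because its WT columns hold the arrays of the other WT group. With normexp, Per3 turned to 0.090 in ATF6aKO minus WT and 0.45 in ATF6bKO minus WT; the cause was not tested. With the replicate number as a term (replicate block), 1249 genes passed in ATF6aKO, 2696 in ATF6bKO and 6937 in WT; the numbers did not pair the samples, with correlations of same-numbered deviations of 0.07 in ATF6aKO, -0.02 in ATF6bKO and 0.02 in WT. Dim genes such as Per3 are where the background handling limits the values.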
